A study of Danio rerio with 9 samples.

Results

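The genes described here are 35 of the 32520 zebrafish genes counted in embryos of 3 genotypes, selected on their measured levels, low in every wild-type library and at least 8-fold higher in embryos of 2 knockouts. A gene was taken when it had at least 1 CPM (the counts of a gene divided by the total of its library and multiplied by 1000000) in each of kdm4aa knockout replicates 1, 2 and 3 and kdm4ab knockout replicates 1 and 3, and when each wild-type library lay at or under 1/8 of both knockout means. kdm4ab knockout replicate 2 took no part in the choice. The values that chose the genes are given below as a description with no test. Against wild type, 46.8% of all genes tested were called (edgeR adjusted p under 0.05, either direction) in the kdm4aa knockout and 49.5% in the kdm4ab knockout, and nothing is read from such calls for the 35. All 35 passed the filter on low counts of the fit used for the tests, which a gene can pass through the groups in which it is high.

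The groups were wild type, a kdm4aa knockout and a kdm4ab knockout, with 3 libraries of embryos each. The sources used here do not state the stage, the clutches, the strain or how the alleles were made, so p-values measure only how far these samples lie apart, and that may be technical. The purpose of the study was to find targets of kdm4aa, among which it took up cyp26a1. In embryos sequenced in bulk, a change in the number of cells of a type and a change in RNA per cell cannot be told apart.

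KDM4 proteins are histone demethylases that act on the marks H3K9 and H3K36. Methylated H3K9 is a mark of silent chromatin, and methylated H3K36 is found over the bodies of transcribed genes. kdm4aa and kdm4ab are a pair of zebrafish genes of this family.

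Library totals ran from 27894551 to 46156237 counts, and kdm4ab knockout replicate 2 had the smallest. That library held a count for 14247 genes, against 22025 to 23019 in the others, and had no count of kdm4aa or kdm4ab. In replicates 1 and 3 of its knockout kdm4ab was at 2.56 and 2.33 CPM, against 123, 169 and 121 CPM in wild type. In its own knockout kdm4aa was at 16.8, 14.3 and 16.1 CPM, against 17.5, 20.6 and 18.5 CPM in wild type, so the level of this transcript does not check that label. Because replicate 2 of the kdm4ab knockout stands apart, tests used the other 8 libraries, and the main counts of calls are also given with all 9.

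The rule applied to the kdm4aa knockout alone took 109 genes, of which the 35 are 32.1%. Applied to the kdm4ab knockout alone it took 239 genes, of which they are 14.6%. Both knockouts are set against the same 3 wild-type libraries. The mirrored rule, for genes at least 8-fold lower in both knockouts, took 53 genes. Together the 35 genes made up 41.6, 38.4 and 41.6 CPM of the wild-type libraries, 766, 755 and 733 CPM of the kdm4aa knockout and 935 and 890 CPM of the kdm4ab knockout replicates 1 and 3. In wild type the mean was under 1 CPM for 26 of them and at least 1 CPM for 9. None was without a count in all 3 wild-type libraries, and 6 had no count in at least 1. The ratio of the knockout mean to the wild-type mean ran from 10.8 to 422 with a median of 21.6 in the kdm4aa knockout, and from 9.14 to 494 with a median of 30.3 in the kdm4ab knockout. Just inside the threshold, the smaller knockout mean was 8.23 times the highest wild-type library for SNTB1, 8.45 times for si:dkey-182m1.2 and 8.65 times for pik3ap1. Just outside it were plagl2 at 7.98, TMEM230 at 7.93 and ggt1b at 7.68 times.

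**Figure D1:**
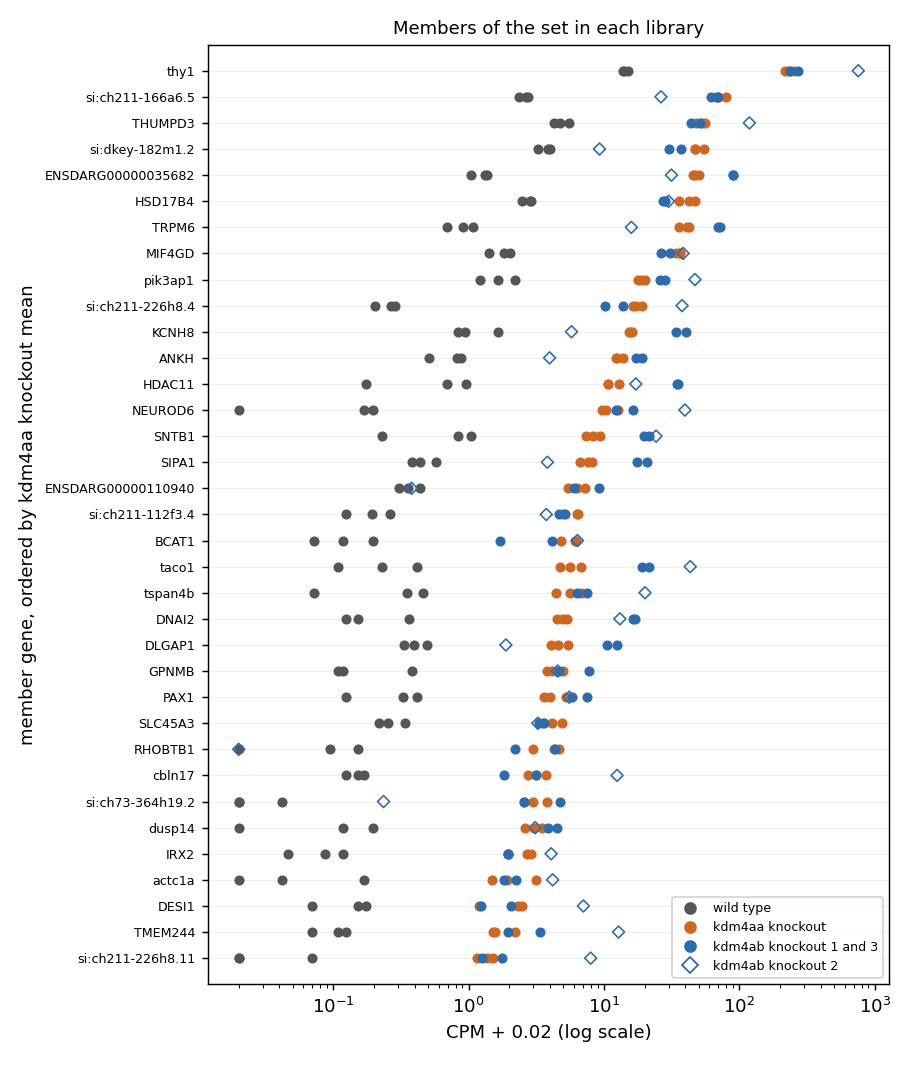
CPM plus 0.02 on a log axis for the 35 genes in each of the 9 libraries, ordered by their kdm4aa knockout mean. Filled points are the 8 libraries of the rule, and open diamonds are kdm4ab knockout replicate 2. The filled knockout points lie to the right of the wild-type points in every line, which the rule requires of the knockout means. The diamonds lie on either side of the blue points.

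By their names the genes belong to many functions. They include developmental transcription factors, a histone deacetylase, proteins of neurons and synapses, enzymes and transporters, adaptors of intracellular signalling, and proteins of cilia and muscle. Of the 35, 27 carry a gene name, 6 a clone name and 2 no symbol in the table of names used.

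Transcription factors of development were NEUROD6, IRX2 and PAX1. NEUROD6 (ENSDARG00000020794), a basic helix-loop-helix factor of neurons, was at 0.148, 0 and 0.177 CPM in the wild-type libraries, 12.7, 10.4 and 9.68 CPM in the kdm4aa knockout, and 16.5 and 12.2 CPM in the kdm4ab knockout. IRX2 (ENSDARG00000001785), an Iroquois homeobox factor of tissue patterning, was at 0.0986, 0.0260 and 0.0662 CPM in the wild-type libraries, 1.93, 2.68 and 2.85 CPM in the kdm4aa knockout, while both kdm4ab knockout libraries were at 1.95 CPM. PAX1 (ENSDARG00000008203), a paired box factor of the sclerotome and the pharyngeal pouches, was at 0.395, 0.104 and 0.309 CPM in the wild-type libraries, 3.61, 5.21 and 4.0 CPM in the kdm4aa knockout, and 7.47 and 5.81 CPM in the kdm4ab knockout. The ranges of the knockouts overlapped for NEUROD6 and IRX2, and PAX1 was higher in both kdm4ab libraries than in any kdm4aa library.

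Genes of chromatin and RNA were HDAC11, MIF4GD, THUMPD3 and taco1. HDAC11, the class IV histone deacetylase, was at 0.937, 0.675 and 0.155 CPM in the wild-type libraries, 10.7, 12.8 and 10.7 CPM in the kdm4aa knockout, and 35.2 and 34.5 CPM in the kdm4ab knockout. MIF4GD (ENSDARG00000102080), a partner of the protein that binds the stem-loop of histone mRNAs, was at 2.0, 1.40 and 1.81 CPM in the wild-type libraries, 36.4, 36.2 and 34.0 CPM in the kdm4aa knockout, and 30.8 and 26.6 CPM in the kdm4ab knockout. THUMPD3, a tRNA methyltransferase, was at 4.27, 4.75 and 5.47 CPM in the wild-type libraries, 53.1, 55.9 and 48.2 CPM in the kdm4aa knockout, and 51.2 and 43.6 CPM in the kdm4ab knockout. The knockouts were apart for HDAC11 and MIF4GD, in opposite orders, and overlapped for THUMPD3. The translational activator of a mitochondrial cytochrome oxidase subunit, taco1, was at 0.395, 0.208 and 0.0883 CPM in the wild-type libraries, 6.73, 4.72 and 5.63 CPM in the kdm4aa knockout, and 21.6 and 19.0 CPM in the kdm4ab knockout.

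Genes of neurons and synapses were thy1, DLGAP1, KCNH8 and cbln17. The gene for the lipid-anchored surface glycoprotein Thy-1, thy1, was at 15.1, 13.8 and 14.1 CPM in the wild-type libraries, 256, 218 and 231 CPM in the kdm4aa knockout, and 273 and 239 CPM in the kdm4ab knockout, which overlapped. DLGAP1 (ENSDARG00000014280), a scaffold of the postsynaptic density, was at 0.468, 0.312 and 0.375 CPM in the wild-type libraries, 4.56, 5.36 and 4.05 CPM in the kdm4aa knockout, and 10.4 and 12.4 CPM in the kdm4ab knockout. KCNH8, a voltage-gated potassium channel, was at 0.912, 1.64 and 0.817 CPM in the wild-type libraries, 16.02, 15.5 and 15.4 CPM in the kdm4aa knockout, and 34.1 and 40.3 CPM in the kdm4ab knockout. DLGAP1 and KCNH8 were higher in both kdm4ab knockout libraries than in any kdm4aa knockout library. The cerebellin cbln17, of a family of secreted proteins of which mammalian members organise synapses, was at 0.104 to 0.148 CPM in the wild-type libraries, 2.74 to 3.72 CPM in the kdm4aa knockout, and 3.12 and 1.82 CPM in the kdm4ab knockout.

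Enzymes and transporters were TRPM6, HSD17B4, ANKH, BCAT1 and SLC45A3. TRPM6, a magnesium channel with a kinase domain, was at 0.888, 0.675 and 1.06 CPM in the wild-type libraries, 35.8, 41.3 and 42.1 CPM in the kdm4aa knockout, and 69.2 and 71.7 CPM in the kdm4ab knockout. HSD17B4, an enzyme of beta-oxidation in peroxisomes, was at 2.47, 2.83 and 2.85 CPM in the wild-type libraries, 42.6, 47.2 and 35.7 CPM in the kdm4aa knockout, and 27.2 and 28.3 CPM in the kdm4ab knockout. ANKH (ENSDARG00000014969), which controls the export of pyrophosphate from cells, was at 0.493, 0.857 and 0.795 CPM in the wild-type libraries, 12.4, 13.9 and 12.2 CPM in the kdm4aa knockout, and 17.2 and 19.0 CPM in the kdm4ab knockout. TRPM6 and ANKH were thus higher in the kdm4ab libraries and HSD17B4 in the kdm4aa libraries. BCAT1, the cytosolic aminotransferase of branched-chain amino acids, was at 0.0986, 0.0519 and 0.177 CPM in the wild-type libraries, 4.83, 6.15 and 6.10 CPM in the kdm4aa knockout, and 4.14 and 1.69 CPM in the kdm4ab knockout, whose libraries lay far apart. SLC45A3, of a family of sugar transporters, was at 0.199 to 0.321 CPM in the wild-type libraries, 3.55 to 4.84 CPM in the kdm4aa knockout, and 3.29 and 3.61 CPM in the kdm4ab knockout.

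Genes of intracellular signalling were SIPA1, pik3ap1, dusp14 and RHOBTB1. SIPA1, an activator of the GTPase of Rap proteins, was at 0.419, 0.364 and 0.552 CPM in the wild-type libraries, 6.65, 8.07 and 7.64 CPM in the kdm4aa knockout, and 17.6 and 20.7 CPM in the kdm4ab knockout. The adaptor pik3ap1, which links receptors to phosphoinositide 3-kinase in mammalian B cells, was at 1.18, 2.18 and 1.63 CPM in the wild-type libraries, 20.04, 18.7 and 17.9 CPM in the kdm4aa knockout, and 25.9 and 28.0 CPM in the kdm4ab knockout. Both were higher in each kdm4ab library than in any kdm4aa library. The dual specificity phosphatase dusp14 was at 0 to 0.177 CPM in the wild-type libraries, 2.61 to 3.47 CPM in the kdm4aa knockout, and 3.81 and 4.46 CPM in the kdm4ab knockout. RHOBTB1 was at 0 to 0.132 CPM in the wild-type libraries, 2.96 to 4.66 CPM in the kdm4aa knockout, and 2.17 and 4.303 CPM in the kdm4ab knockout.

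Genes of cilia and muscle were DNAI2, SNTB1 and actc1a. DNAI2, an intermediate chain of the outer dynein arm of motile cilia, was at 0.345, 0.104 and 0.132 CPM in the wild-type libraries, 4.94, 4.46 and 5.31 CPM in the kdm4aa knockout, and 16.2 and 17.0 CPM in the kdm4ab knockout. SNTB1, a syntrophin of the dystrophin complex, was at 0.814, 0.208 and 1.02 CPM in the wild-type libraries, 8.34, 9.35 and 7.37 CPM in the kdm4aa knockout, and 21.4 and 19.7 CPM in the kdm4ab knockout. For both, the kdm4ab libraries lay above all kdm4aa libraries. The cardiac actin gene actc1a was at 0 to 0.148 CPM in the wild-type libraries, 1.47 to 3.12 CPM in the kdm4aa knockout, and 2.21 and 1.82 CPM in the kdm4ab knockout.

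Of the other named genes, the tetraspanin tspan4b was at 0.0519 to 0.444 CPM in the wild-type libraries, 4.40 to 6.76 CPM in the kdm4aa knockout, and 7.45 and 6.28 CPM in the kdm4ab knockout. GPNMB, a glycoprotein of melanosomes and macrophages, was at 0.0883 to 0.364 CPM in the wild-type libraries, 3.80 to 4.98 CPM in the kdm4aa knockout, and 7.76 and 4.66 CPM in the kdm4ab knockout. The ranges of both genes overlapped between the knockouts. DESI1 (ENSDARG00000033140), an isopeptidase that removes SUMO, was at 0.0493 to 0.156 CPM in the wild-type libraries, 1.17 to 2.44 CPM in the kdm4aa knockout, and 2.04 and 1.20 CPM in the kdm4ab knockout. TMEM244, a predicted membrane protein, was at 0.0493 to 0.104 CPM in the wild-type libraries, 1.49 to 2.18 CPM in the kdm4aa knockout, and 3.34 and 1.92 CPM in the kdm4ab knockout.

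The 8 genes with a clone name or no symbol had kdm4aa knockout means between 1.32 CPM for si:ch211-226h8.11 and 72.1 CPM for si:ch211-166a6.5. A pair of them rested on very few wild-type counts. For si:ch73-364h19.2 there was 1 count in wild type and 359 in the kdm4aa knockout, a ratio of 387 with a 95% Clopper-Pearson interval from 69.0 to 15325, and 302 in the kdm4ab knockout, a ratio of 441 with an interval from 78.5 to 17469. For si:ch211-226h8.11 there were 2 wild-type counts, and the ratios were 83.0 with an interval from 22.6 to 691 in the kdm4aa knockout and 93.4 with an interval from 25.3 to 780 in the kdm4ab knockout. These intervals cover counting error only, and they take no account of the choice of the genes by the same ratios.

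The choice of the genes set each knockout against wild type and not against the other knockout, so the level in one knockout was also tested against the other. The choice used the same knockout libraries, however, and left out genes high in 1 knockout only. The values of the 35 are therefore not free of the choice, and a smaller difference than over all genes is not read as a result. Of the 35 genes, 16 differed between the knockouts at an adjusted p under 0.05 in edgeR's quasi-likelihood test (Benjamini-Hochberg adjustment over every gene tested), beside 52.8% of all 19882 genes tested. With all 9 libraries the count was 3, namely taco1, DNAI2 and HSD17B4, beside 3457 of all 18998 genes then tested. Of the 16, 7 were higher in the kdm4aa knockout and 9 in the kdm4ab knockout, beside 26.0% and 26.8% of all genes. The CPM ranges of the knockouts did not overlap for 18 of the 35, beside 67.9% of all genes tested. The median absolute log2 difference between the knockouts was 0.45 over the 35 and 0.59 over all genes tested. With 8 libraries the share called was near that of all genes tested.

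The 9 genes higher in the kdm4ab knockout were led by taco1. Its log2 difference, kdm4aa minus kdm4ab, was -1.67 (SE 0.223, edgeR adjusted p = 8.24e-06). Its means were 5.69 ± 1.01 CPM (SD, n = 3) in the kdm4aa knockout and 20.3 CPM (n = 2) in the kdm4ab knockout, before the scaling used in the fit. The cilium gene DNAI2 followed at -1.59 (SE 0.214, edgeR adjusted p = 8.32e-06) and HDAC11 at -1.45 (SE 0.228, edgeR adjusted p = 4.62e-05). SIPA1 was at -1.20, SNTB1 at -1.14, DLGAP1 at -1.13, KCNH8 at -1.08, the gene without a symbol ENSDARG00000035682 at -0.75 and TRPM6 at -0.66. The call of SNTB1 was lost with DESeq2, at an adjusted p of 0.0554.

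The 7 genes higher in the kdm4aa knockout were led by BCAT1. Its log2 difference was 1.13 (SE 0.331, edgeR adjusted p = 0.00865), but it was 1.91 without kdm4ab knockout replicate 1 and 0.64 without replicate 3, where the edgeR adjusted p was 0.131. HSD17B4 was at 0.75 (SE 0.127, edgeR adjusted p = 9.13e-05), si:dkey-182m1.2 at 0.73 and si:ch211-226h8.4 at 0.72. MIF4GD was at 0.47, with an edgeR adjusted p of 0.0712 without kdm4ab knockout replicate 3. THUMPD3 was at 0.31 and si:ch211-166a6.5 at 0.29, and both had overlapping CPM ranges. The THUMPD3 call was lost without kdm4aa knockout replicate 1 or 2 or kdm4ab knockout replicate 3, and that of si:ch211-166a6.5 without kdm4aa knockout replicate 1 or 2 or kdm4ab knockout replicate 1. Of the 19 genes that were not called, pik3ap1 came nearest, at -0.35 (SE 0.158, edgeR adjusted p = 0.0707), and passed the threshold without wild-type replicate 1 or 2, at 0.0413 and 0.0362. NEUROD6, IRX2 and PAX1 were among those not called, at -0.23 (SE 0.231), 0.52 (SE 0.359) and -0.48 (SE 0.277).

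**Figure D2:**
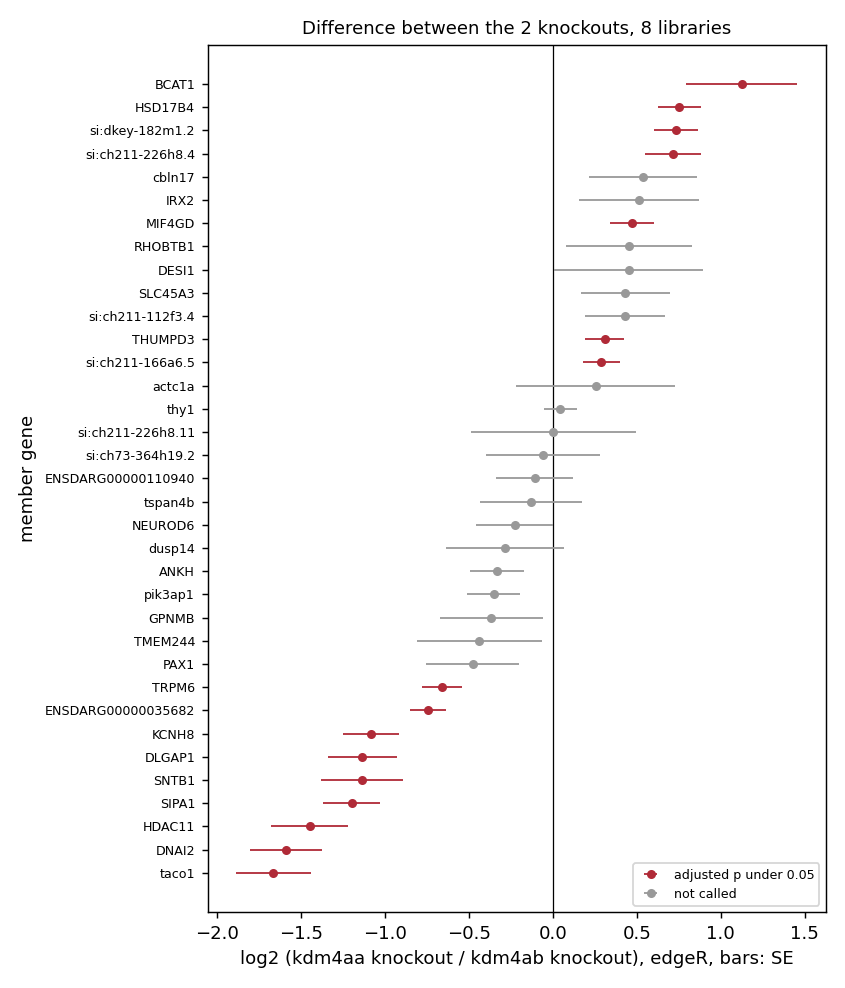
Log2 difference between the kdm4aa and kdm4ab knockouts for each of the 35 genes, from edgeR on 8 libraries, with bars of 1 SE. The SE was derived from the F statistic of the test. Red points have an adjusted p under 0.05: 7 lie to the right of 0, led by BCAT1, and 9 to the left, led by taco1.

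In kdm4ab knockout replicate 2, the library that the rule did not use, 29 of the 35 genes were above 8 times the wild-type mean. The same held for 2.93% of the 14338 other genes with at least 1 CPM in kdm4ab knockout replicates 1 and 3. It held for 52.0% of the 204 other genes that met the rule in the kdm4ab knockout alone. The rule chose the 35 on low wild-type levels, so a high ratio to the wild-type mean was partly set by the choice. The 14338 genes were not chosen in that way, so their share is not a like background. Of the 35 genes, that library was above both other kdm4ab libraries for 17, below both for 18 and between them for 0. The matching shares over all genes were not counted, so nothing particular to the 35 is read from this. The gene thy1 was at 757 CPM there, THUMPD3 at 119 CPM, taco1 at 43.4 CPM and NEUROD6 at 39.6 CPM, each above the other kdm4ab libraries. The genes that were not above 8 times the wild-type mean were ANKH at 5.52 times, KCNH8 at 5.11 times, DLGAP1 at 4.84 times, si:dkey-182m1.2 at 2.52 times, ENSDARG00000110940 at 1.03 times and RHOBTB1 with no count. For RHOBTB1 a count of 0 allows up to 0.108 CPM in that library, at 3 counts, and the mean of the other kdm4ab libraries was 3.23 CPM. This floor covers counting error only. That library held a count for fewer genes than the others and had none of kdm4aa, so no fold is read from its 0 for RHOBTB1.

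**Figure D3:**
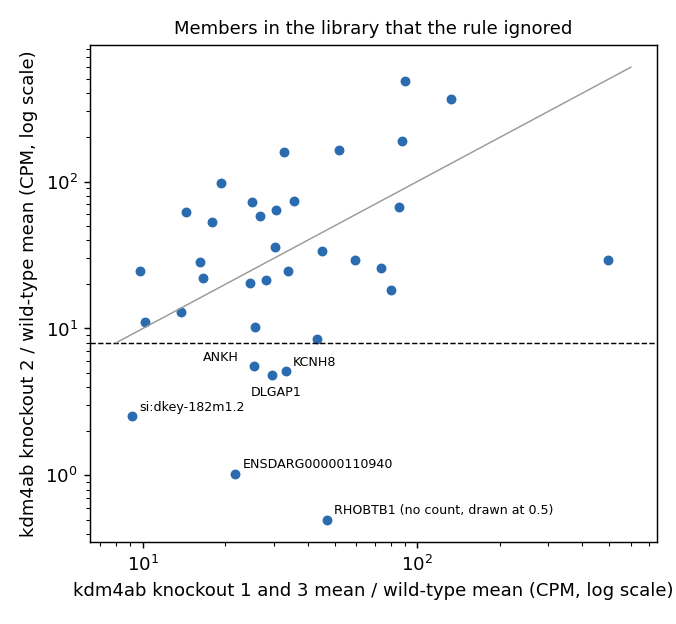
Level of each of the 35 genes in kdm4ab knockout replicate 2 against the mean of replicates 1 and 3, both divided by the wild-type mean, on log axes. The dashed line marks 8-fold and the grey line equal values. The 6 labelled genes lie under the dashed line, and RHOBTB1, which had no count, is drawn at 0.5.

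The 35 genes lay on many chromosomes, but some lay near each other. With up to 20 genes between, a distance that was not planned, 8 of them had another member near. Whether this is more than for other genes was not tested. Placed by their own or their neighbours' symbols, 34 of them lay on 17 chromosomes. Chromosome 2, which holds kdm4ab, had 4 of them (11.4%, beside 4.58% of all genes), and chromosome 6, which holds kdm4aa, had 2 (5.71%, beside 3.91%). The nearest was 304 genes from kdm4ab and 392 from kdm4aa in the order of the deposited table. No member stood directly beside another. The closest pair was si:ch211-226h8.4 and si:ch211-226h8.11 on chromosome 22, with 3 genes between them. GPNMB and KCNH8 on chromosome 19 had 6 genes between them, si:ch211-112f3.4 and SLC45A3 on chromosome 11 had 8, and RHOBTB1 and taco1 on chromosome 12 had 18.

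Genes around the members were tested against wild type, since the rule did not take them. A neighbour that met the rule was itself a member and was left out, so the shares below are not fully free of the choice. Among 337 genes within 5 places of a member, 215 were tested. Of these, 28 (13.0%) were higher in both knockouts in edgeR's test, beside 11.0% of all genes, and 25 (11.6%) were lower in both, beside 9.64%. Their median log2 difference from wild type was 0.05 in the kdm4aa knockout and 0.07 in the kdm4ab knockout. These shares were near those of all genes. With all 9 libraries, 10 of 208 were higher in both and 6 lower in both. The matching counts over all genes with 9 libraries are not given here.

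IRX2 lay in a stretch of the deposited table that holds other Iroquois genes. IRX1 (ENSDARG00000101831), the next gene in the table, was at 0.296, 0.156 and 0.177 CPM in the wild-type libraries, 1.36, 2.18 and 1.58 CPM in the kdm4aa knockout, and 1.45 and 1.05 CPM in the kdm4ab knockout. Its log2 difference from wild type was 3.07 (SE 0.447, edgeR adjusted p = 2.47e-05) in the kdm4aa knockout and 2.46 (SE 0.477, edgeR adjusted p = 0.00039) in the kdm4ab knockout. IRX4 (ENSDARG00000035648) was on the other side in table order, with 1 gene between. Each gene was given the commonest chromosome among the symbols of the 51 consecutive genes around it. That label was 9 for IRX4 and 16 for the next gene, IRX2 and IRX1. Such a label is unreliable where the table passes from one chromosome to the next, so it does not settle whether IRX4 flanks IRX2. IRX4 was at 0.148, 0 and 0.110 CPM in the wild-type libraries, 1.49, 2.39 and 1.63 CPM in the kdm4aa knockout, and 0.737 and 1.31 CPM in the kdm4ab knockout. Its log2 differences were 4.39 and 3.39, at edgeR adjusted p of 1.66e-05 and 0.000403. All knockout libraries of both genes were above all wild-type libraries, but IRX4 had no count in kdm4ab knockout replicate 2, where IRX1 was at 3.23 CPM. With all 9 libraries both calls of IRX1 remained, and those of IRX4 were lost, at edgeR adjusted p of 0.115 and 0.201. The gene between IRX4 and IRX2, ENSDARG00000117782, was called in the kdm4ab knockout, at a log2 difference of 2.15, and was at -0.44 in the kdm4aa knockout without a call. Its call was lost without kdm4ab knockout replicate 1, at an edgeR adjusted p of 0.139, and with all 9 libraries, at 0.43. SLC6A3, the dopamine transporter, with 3 genes between it and IRX2, was at 2.25 and 2.43 and was called in both. In kdm4ab knockout replicate 2 SLC6A3 had no count, and both calls were lost with all 9 libraries, at edgeR adjusted p of 0.336 and 0.314.

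The run between the clone-named genes on chromosome 22 was mixed. The member si:ch211-226h8.4 was at 0.247, 0.182 and 0.265 CPM in the wild-type libraries, 19.2, 17.1 and 16.4 CPM in the kdm4aa knockout, and 13.8 and 10.2 CPM in the kdm4ab knockout. The next gene, si:ch211-226h8.6, was lower in both knockouts, at log2 differences of -3.94 and -2.92, while kdm4ab knockout replicate 2 was at 4.84 CPM, above wild type at 1.79 to 1.90 CPM. After it came zgc:172218, higher at 2.58 and 2.25, and si:ch211-226h8.8, higher at 5.98 and 3.61. The wild-type libraries had si:ch211-226h8.8 at 0.0247, 0.0519 and 0 CPM, each under the level of 3 counts. It was at 1.76, 1.81 and 1.38 CPM in the kdm4aa knockout, and at only 0.498 and 0.205 CPM in the kdm4ab knockout. All these calls are from edgeR's quasi-likelihood test on 8 libraries, and that of zgc:172218 in the kdm4ab knockout was lost without kdm4ab knockout replicate 1, at 1.14 with an adjusted p of 0.0777. The calls of si:ch211-226h8.6 with all 9 libraries were lost in both knockouts, at edgeR adjusted p of 0.0873 and 0.932, and that of zgc:172218 in the kdm4aa knockout, at 0.144. The counting of reads that match more than 1 gene is not described, so values of genes in such a run are uncertain where their sequences are alike.

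**Figure D4:**
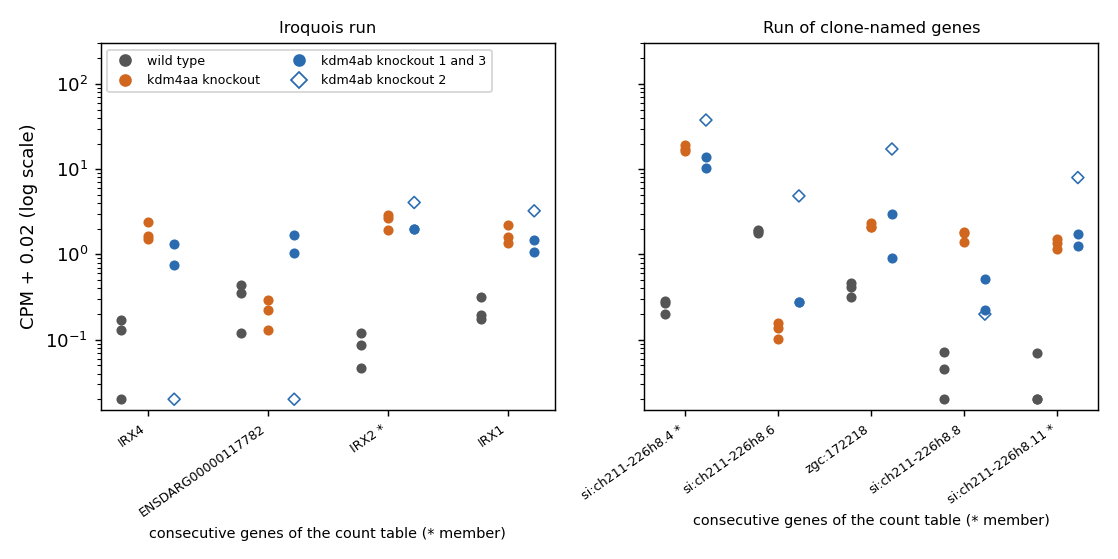
CPM plus 0.02 on a log axis for consecutive genes around IRX2 (left) and from si:ch211-226h8.4 to si:ch211-226h8.11 (right), by library, with the members starred. IRX4 and IRX1 lie above wild type in the kdm4aa knockout and in kdm4ab knockout replicates 1 and 3, and si:ch211-226h8.6 lies below it there.

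Single genes near other members were also higher in both knockouts in edgeR's test on 8 libraries. RASGRP2, an activator of Rap proteins with 1 gene between it and SIPA1, was without a count in the 3 wild-type libraries. Its levels were 0.272, 0.641 and 0.701 CPM in the kdm4aa knockout, with 2.64 and 3.71 CPM in the kdm4ab knockout. Against a floor of 3 counts per wild-type library its means were at least 7.4-fold and 43.7-fold higher. KHDRBS2, an RNA-binding protein with 3 genes between it and pik3ap1, had wild-type counts in replicate 2 alone, at 0.104 CPM, and was at 1.92 to 2.17 CPM in the kdm4aa knockout, with 0.910 and 0.717 CPM in the kdm4ab knockout. Its log2 differences of 5.89 and 4.42 became 9.43 and 7.96 without that library. The gene cyp26a1, which the study took up and which encodes an enzyme that breaks down retinoic acid, lies between RHOBTB1 and taco1 (named CYP26A1 in the table of names). It was at 96.8, 75.8 and 89.2 CPM in the wild-type libraries, 58.6, 63.2 and 57.3 CPM in the kdm4aa knockout, and 104 and 122 CPM in the kdm4ab knockout. Its log2 difference from wild type was -0.49 in the kdm4aa knockout (edgeR adjusted p = 0.000839) and 0.27 in the kdm4ab knockout, where it was not called at an edgeR adjusted p of 0.0545 and passed the threshold without wild-type replicate 1 or kdm4ab knockout replicate 1 and with no filter on low counts. With all 9 libraries the adjusted p in the kdm4aa knockout was 0.121.

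Relatives of the members by symbol, again without the members, were tested against wild type as well. Of 183 relatives in 24 families, 148 were tested. In the kdm4aa knockout 30 were higher (20.3%, beside 23.3% of all genes) and 31 lower (20.9%, beside 23.5%). In the kdm4ab knockout 46 were higher (31.1%, beside 25.3%) and 25 lower (16.9%, beside 24.2%). The counts with all 9 libraries, over 142 relatives, were 5 higher and 1 lower in the kdm4aa knockout and 17 higher and 6 lower in the kdm4ab knockout. Over all 18998 genes tested with 9 libraries, 823 were higher and 864 lower in the kdm4aa knockout, and 1705 and 1527 in the kdm4ab knockout. No family held more than 1 member.

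For the counts by family on 8 libraries, the shares of all genes were 23.3% higher and 23.5% lower in the kdm4aa knockout. In the kdm4ab knockout they were 25.3% and 24.2%. Of the 9 tested relatives of IRX2, 4 were higher and 0 lower in each knockout. Beside IRX4 and IRX1 these were irx7, at log2 differences of 1.20 and 1.42, and IRX3 (ENSDARG00000031138), at 2.97 and 1.95. The calls of IRX3 with all 9 libraries were lost in both knockouts, at edgeR adjusted p of 0.183 and 0.441, and that of irx7 in the kdm4aa knockout, at 0.054, which left 1 and 2 of the 9 called higher. Among 10 tested paired box factors, 3 were higher and 0 lower in each knockout, and 0 and 1 of 8 were higher with all 9 libraries. PAX6 (ENSDARG00000045936), a factor of the eye and brain, was at 1.55 and 2.70, and its call in the kdm4aa knockout, at an edgeR adjusted p of 0.0414, was lost when any of 5 libraries was left out (wild-type replicates 1 and 3, kdm4aa knockout replicates 2 and 3, kdm4ab knockout replicate 3). Of 11 tested relatives of HDAC11, 1 was higher and 7 lower in the kdm4aa knockout, and 2 were higher and 4 lower in the kdm4ab knockout. The class IIa deacetylases hdac7b, at log2 differences of -2.43 and -2.53, and hdac9b, at -2.82 and -2.38, fell in both. These 4 calls, and all others of the 11, were lost with all 9 libraries, at edgeR adjusted p of 0.0972, 0.333, 0.172 and 0.101.

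Other families were split. TRPM7, the channel kinase nearest in kind to TRPM6, was higher at 0.65 and 0.30, and the second call was lost without kdm4ab knockout replicate 3, at an edgeR adjusted p of 0.146, and both with all 9 libraries, at 0.445 and 0.881. The channel gene trpm4b.2 was at -0.11 in the kdm4aa knockout, without a call, and at 4.68 in the kdm4ab knockout. KCNH5, a potassium channel related to KCNH8, was at 0.0493, 0.260 and 0.243 CPM in the wild-type libraries, 0, 0.0583 and 0 CPM in the kdm4aa knockout, with 6.93 and 8.07 CPM in the kdm4ab knockout. It was thus called lower in one knockout, at -3.14, and higher in the other, at 5.22, and the first value was -5.97 without kdm4aa knockout replicate 2. Both KCNH5 calls were lost with all 9 libraries, at edgeR adjusted p of 0.446 and 0.0947, and replicate 2 of the kdm4ab knockout had no count. The mitochondrial enzyme BCAT2 was higher in the kdm4aa knockout, at 0.55, and lower in the kdm4ab knockout, at -0.32, and both calls were lost with all 9 libraries, at edgeR adjusted p of 0.0717 and 0.0776. The dehydrogenase hsd17b14 was lower in both, at -2.06 and -3.77. The tetraspanin tspan34b was higher in both at 2.49 and 2.86, the scaffold dlgap4a at 0.97 and 0.66, and the axonemal dynein gene DNAI4 at 2.0 and 2.01. Of 27 further gene families counted by name, 26 held no member, a count given without the share of all genes in them. The solute carriers held 1, SLC45A3, and of the 359 others tested 86 were higher and 83 lower in the kdm4aa knockout, and 95 higher and 83 lower in the kdm4ab knockout. The shares of all genes were 23.3% and 23.5%, and 25.3% and 24.2%, and those of the solute carriers were near them. Over all 9 libraries and 344 solute carriers the counts were 13 and 14, and 35 and 20.

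For 6 of the members the table of names gives the same symbol to another gene, which the rule did not take. The other DESI1 gene (ENSDARG00000089529) was at 37.5, 41.0 and 39.5 CPM in wild type and was not called in either knockout. The other MIF4GD gene (ENSDARG00000102578) was at 15.02, 15.9 and 17.5 CPM in wild type and was higher at log2 differences of 0.63 and 1.04, of which the first was not called with all 9 libraries, at an edgeR adjusted p of 0.482. The other DLGAP1 gene (ENSDARG00000037415) was at 6.19, 4.75 and 4.35 CPM in wild type and was lower in the kdm4ab knockout, at -0.82, and at -0.48 in the kdm4aa knockout without a call unless wild-type replicate 3 was left out. The call in the kdm4ab knockout was lost with all 9 libraries, at an edgeR adjusted p of 0.408. All 3 had smaller differences from wild type than the members of the same symbol, which the rule holds above 8-fold. The other ANKH gene (ENSDARG00000071724) was at 102, 107 and 114 CPM in wild type, at 0.08 in the kdm4aa knockout without a call, and higher at 0.62 in the kdm4ab knockout. The other NEUROD6 gene (ENSDARG00000040008) was at 6.19, 8.02 and 6.38 CPM in wild type and was higher at 0.46 and 0.42. The other PAX1 gene (ENSDARG00000073814) was at 5.47, 7.01 and 5.43 CPM in wild type and was higher at 0.54 and 0.50. The calls of these NEUROD6 and PAX1 genes were each lost with all 9 libraries and when single libraries were left out: for NEUROD6 in the kdm4aa knockout wild-type replicate 1 or 3 or kdm4aa knockout replicate 3, for PAX1 in the kdm4aa knockout wild-type replicate 3 or kdm4aa knockout replicate 2, and for PAX1 in the kdm4ab knockout wild-type replicate 1 or 3 or kdm4ab knockout replicate 1. The NEUROD6 call in the kdm4ab knockout, at an edgeR adjusted p of 0.0454, was also lost under RLE scaling, with DESeq2, with no filter and with the replicate block, and without wild-type replicate 1 or 3, kdm4aa knockout replicate 1 or 3 or either kdm4ab knockout library.

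**Figure D5:**
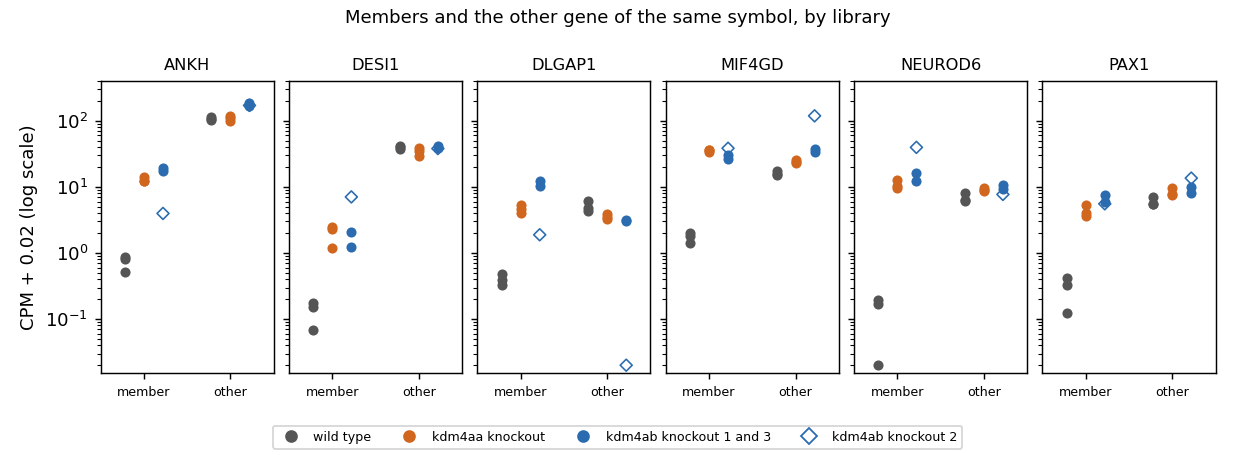
CPM plus 0.02 on a log axis for the 6 members whose symbol sits on a second gene, with the member on the left and the other gene on the right of each panel, by library. The members step up from wild type to the knockouts, as the rule requires, while the other genes differ less from wild type, with log2 differences between -0.82 and 1.04. Levels are not per length, so the genes of a pair are compared by their steps only.

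None of the 35 genes was in any of 9 lists of cell type markers. The lists matched only 3 to 11 of the 32520 genes each, so this says little about the 35. The epidermis and periderm list summed to 297 to 365 CPM in the wild-type libraries, 155 to 188 CPM in the kdm4aa knockout, with 30.5 and 48.2 CPM in the kdm4ab knockout, with 6 and 7 of 7 tested genes lower in edgeR's test. The maternal oocyte list summed to 2079 to 2453 CPM in the wild-type libraries, 3628 to 4520 CPM in the kdm4aa knockout, with 2965 and 3058 CPM in the kdm4ab knockout, with 7 and 4 of 10 tested genes higher and 1 lower in each. In kdm4ab knockout replicate 2 that list summed to 8720 CPM. The neural list summed to 242 to 319 CPM in the wild-type libraries, 229 to 277 CPM in the kdm4aa knockout, with 145 and 160 CPM in the kdm4ab knockout, with 1 gene of 5 higher in each and 2 and 3 lower, and NEUROD4 had no count in any library. The somite and muscle list summed to 5.57 to 7.95 CPM in the wild-type libraries, 2.92 to 4.43 CPM in the kdm4aa knockout, with 4.79 CPM in each kdm4ab library, with none of 7 tested genes higher and 1 lower in each, and MYF5 had no count. Of the other lists, germ cell genes were higher in 7 of 10 in each knockout and lower in 1 and 2, notochord genes lower in 2 of 3 in each, yolk syncytial layer genes higher in 1 of 6 and lower in 0 in the kdm4aa knockout and lower in 4 in the kdm4ab knockout, myeloid genes higher in 2 of 4 and lower in 1 in the kdm4aa knockout and lower in 1 in the kdm4ab knockout, and neither of the 2 tested erythroid genes was called. Of the epidermis and periderm genes, 3 of 5 were lower in the kdm4aa knockout and 5 of 5 in the kdm4ab knockout with all 9 libraries, and of the maternal oocyte genes 2 of 10 were higher in each. In that fit germ cell genes were higher in 5 and 2 of 10, and notochord genes lower in 0 and 2 of 3. Neural genes were higher in 0 and 1 of 5 and lower in 0 and 1. Yolk syncytial layer genes were lower in 0 and 3 of 5. Myeloid genes were higher in 1 and 0 of 4 and lower in 0 and 1. No somite and muscle or erythroid gene was called. The part of such shifts in the levels of the 35 genes was not tested. For the list counts on 8 libraries, the shares of all genes were 23.3% higher and 23.5% lower in the kdm4aa knockout, and 25.3% and 24.2% in the kdm4ab knockout.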

How the data were processed

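Poly-A RNA of zebrafish embryos was sequenced, and the authors deposited whole-number counts per Ensembl gene, not normalized; the submitters' processing notes name GRCz11 and danRer11. No source used here names the aligner, counter, annotation release or strandedness. Each column was matched to a sample by its description. CPM used each library's total over all genes.

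Tests used edgeR 4.0.16 in R 4.3.3 (TMM scaling, filterByExpr, glmQLFit and glmQLFTest, 1 mean per group, Benjamini-Hochberg, threshold 0.05) on 8 libraries and 19882 genes. DESeq2 1.42.0, RLE scaling, no filter, a replicate block, all 9 libraries and leaving out each library were alternatives. On simulated counts of the kdm4aa against kdm4ab comparison (19209 genes), 86 of 100 changes of 1 on the log2 scale and 100 of 100 changes of 2 were recovered, with 10 false calls. Only 200 genes, none of low counts, were changed there, in the kdm4aa libraries alone and with the fitted spread. In the data 52.8% of genes were called, so these rates need not hold for it. Replicates of the same number did not deviate together (correlations -0.026 to 0.046).

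The genes, lists and families were chosen with earlier results of these data known, and relatives and families were taken from symbols. Named genes were the 20 members of highest knockout CPM, those in runs, the 10 with the smallest p between knockouts, those beside the threshold, and up to 4 relatives per family with small p. The remaining members, and the neighbours of members, were named after their values were seen. Symbols came from a table of names and chromosomes from GRCz12tu, whose coordinates were not used. Sequences were not analysed here.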

Additional observations from a re-analysis of the deposited data

Results flagged for a closer look

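For 16 of the 35 genes the effect of the kdm4aa knockout and that of the kdm4ab knockout, both against the same wild type, differed in a test of the difference itself, beside 52.8% of all genes tested. In log2 units, kdm4aa minus kdm4ab, the genes with the larger effect in the kdm4ab knockout were taco1 (-1.67), DNAI2 (-1.59), HDAC11 (-1.45), SIPA1 (-1.20), SNTB1 (-1.14), DLGAP1 (-1.13), KCNH8 (-1.08), ENSDARG00000035682 (-0.75) and TRPM6 (-0.66). Those with the larger effect in the kdm4aa knockout were BCAT1 (1.13), HSD17B4 (0.75), si:dkey-182m1.2 (0.73), si:ch211-226h8.4 (0.72), MIF4GD (0.47), THUMPD3 (0.31) and si:ch211-166a6.5 (0.29). With all 9 libraries 3 of these calls remained, those of taco1, DNAI2 and HSD17B4, and THUMPD3 and si:ch211-226h8.4 changed sign. The calls of THUMPD3 and si:ch211-166a6.5 were also lost without kdm4aa knockout replicate 1 or 2. The rule used the same knockout libraries, so these values are not free of the choice.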

How the results depend on the processing

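The rule took 91 genes with wild type at or under 1/4 of the knockout means, 14 at 1/16 and 17 with a floor of 5 CPM, and 34 to 42 when 1 library was left out. With all 9 libraries, 3 of the 35 genes were called between the knockouts. Of all 18998 genes then tested, 3457 were called between the knockouts, in place of 10499 of 19882 with 8 libraries. For kdm4aa against wild type 1687 were called in place of 9306, and for kdm4ab against wild type 3232 in place of 9848. The spread between replicates (biological coefficient of variation) was then 47.5% in place of 13.1%. Leaving out 1 library gave 13 to 17 of the 35, and 8719 to 10548, 7914 to 9527 and 7783 to 9948 over all genes. Of the 19 members with at least 10 CPM in the kdm4ab knockout, 15 were above 8-fold in replicate 2, and with up to 5 or 20 genes between, 2 or 8 members neighboured another. The replicate block gave 14 of the 35, losing THUMPD3 and si:ch211-166a6.5, and 10009, 9127 and 9417 over all genes. Replicates of the same number did not deviate together, which does not settle whether they shared a clutch. Log2 differences between the knockouts changed sign with all 9 libraries for thy1 (-0.68), DESI1 (-0.62), THUMPD3 (-0.27), ANKH (0.10), ENSDARG00000110940 (0.44), actc1a (-0.17), cbln17 (-0.69), si:ch211-226h8.4 (-0.059), si:ch211-226h8.11 (-1.28) and si:ch73-364h19.2 (0.48), with the block for tspan4b (0.027) and si:ch73-364h19.2 (0.15), and the range without 1 library spanned 0 for thy1 (-0.032 to 0.14), tspan4b (-0.30 to 0.011), ENSDARG00000110940 (-0.39 to 0.25), TMEM244 (-0.76 to 0.010), actc1a (-0.073 to 0.46), GPNMB (-0.67 to 0.043), si:ch211-226h8.11 (-0.20 to 0.27) and si:ch73-364h19.2 (-0.44 to 0.47). None of the values of changed sign passed the threshold, though THUMPD3 and si:ch211-226h8.4 were called with 8 libraries. Against wild type, TRPM7 was at -0.11 in the kdm4ab knockout with all 9 libraries and trpm4b.2 ran from -0.35 to 0.23 in the kdm4aa knockout when 1 library was left out. With all 9 libraries 29 of the 53 calls of named genes that are not members were lost. The causes were not tested. Over all alternatives, 408 of 455 values of members and 720 of 780 of other named genes kept direction and side of the threshold. With all 9 libraries alone, 14 of the 35 members kept both, 11 kept the sign but lost the call, and 10 changed sign. Of the 60 values of other named genes 31 kept both in that fit.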
